A study of Sus scrofa with 6 samples.

Results

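The genes described here encode subunits of the mitochondrial respiratory chain and of ATP synthase, with a few of their assembly factors, and were measured in pig liver. They were chosen by name from the annotation of the array: every gene with a single symbol that begins with NDUF, UQCR, ATP5 or COX followed by a digit, or that is SDHA, SDHB, SDHC, SDHD or CYC1. The array reads a gene through a transcript cluster, a set of probes that covers a gene or a part of one. The rule found 38 genes with 45 clusters among 25385 clusters tested, and for the 7 genes with several clusters the cluster with the highest mean signal over all 6 arrays was used. The choice used no difference between the groups.

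The tissue was liver from adult male German landrace pigs after extended partial hepatectomy, the surgical removal of most of the liver. In the MSC group (3 arrays) the pigs received an intravenous infusion of porcine bone marrow mesenchymal stromal cells, which had been brought to a hepatocyte-like state in culture. In the control group (3 arrays) the pigs underwent the same resection and received only the vehicle. Biopsies were taken about a day after surgery, and all 6 livers had therefore been resected. According to the study's methods each array of a group represents another pig, but no label names the animal. The comparison asks whether the infused cells changed the expression of the energy-producing machinery in the remaining liver.

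The respiratory chain consists of complexes I to IV in the inner mitochondrial membrane. Complexes I and II take electrons from NADH and succinate, complex III passes them to cytochrome c, and complex IV hands them to oxygen. Complexes I, III and IV pump protons as they work, and ATP synthase, also called complex V, lets the protons flow back to make ATP. Most subunits are encoded in the nucleus and imported, while a core of hydrophobic subunits is encoded by mitochondrial DNA. Hepatocytes are rich in mitochondria and use this ATP for urea synthesis, gluconeogenesis and, after resection, for growth.

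None of the 38 genes differed between MSC and control livers by the threshold of the study's methods, an unadjusted limma p under 0.05 together with a log2 difference of at least 0.5. Over all clusters tested, 2.73% passed that threshold. No member reached an unadjusted p under 0.05 alone, against 6.55% of all clusters, and after Benjamini-Hochberg adjustment 0% of all clusters and no member passed. The smallest limma adjusted p among the members was 0.758 and belonged to ATP5G1. An equal-variance test on each cluster alone, which the methods name as well, gave 2 members with an unadjusted p under 0.05, the mitochondrially encoded COX1 and COX2, a share near the 5.82% of all clusters under that test.

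The differences were small and most were positive. The mean log2 signal was higher in MSC livers for 28 of the 38 genes and lower for 10, that is 73.7% higher, as compared to 46.7% of all clusters and 64.6% of the clusters above the background level. The median difference, MSC minus control, was 0.12 on the log2 scale over the members, -0.015 over all clusters and 0.07 over the clusters above background. The members ranged between -0.27 for NDUFA4L2 and 0.40 for ATP5G1. The 95% interval of every member lay within a log2 difference of 1 in either direction, which is 2-fold, and 21 of the 38 intervals lay within 0.5. In bulk tissue fewer cells of a type and less RNA per cell cannot be told apart.

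**Figure D1:**
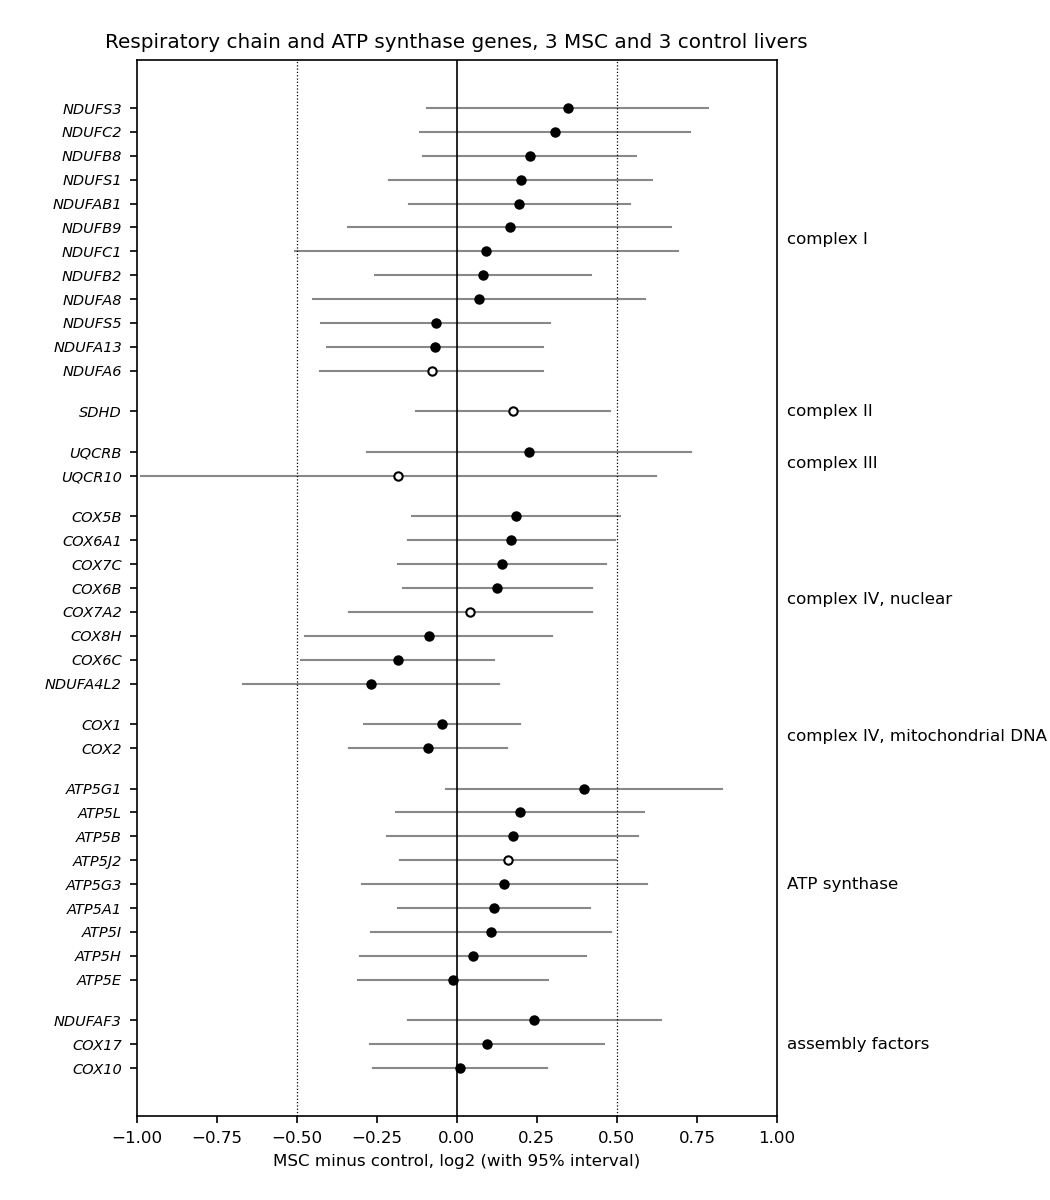
Difference between MSC and control livers on the log2 scale for the members reported here, grouped by complex, with points for the difference, lines for the 95% interval from limma and dotted lines at a difference of 0.5 either way. Open points mark the 5 genes whose clusters the annotation lists as prone to cross-hybridization. Every interval includes 0, and the points range between -0.27 and 0.40.

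Complex I, the NADH dehydrogenase, was represented by 13 subunits, of which 10 had a higher mean in MSC livers, with a median difference of 0.15. NDUFS3, a core subunit of the arm that carries the iron-sulphur clusters, had log2 signals of 10.17, 10.10 and 10.14 in MSC livers, against 10.23, 9.53 and 9.62 in control livers. The MSC livers lay close together, while control 1 was the highest of the 6 and controls 2 and 3 the lowest, so the groups overlapped. The difference was 0.35 (95% interval -0.09 to 0.78, limma adjusted p = 0.763).

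NDUFS1, the largest iron-sulphur subunit of the core, had 9.69, 9.56 and 9.67 in MSC livers, against 9.81, 9.16 and 9.35 in control livers, a difference of 0.20. Control 1 was again the highest array and controls 2 and 3 the lowest.

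Among the accessory subunits of complex I, which surround the core and hold the complex together, NDUFC2 differed most of those found by the naming rule. Its signals were 7.84, 7.75 and 8.01 in MSC livers, against 7.88, 7.21 and 7.58 in control livers, a difference of 0.31 (limma adjusted p = 0.767). Control 1 lay among the MSC livers and the other control livers below them. The mean signal of NDUFC2 was below the background level of 8.18, the level under which 95% of the antigenomic control probe sets lay.

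NDUFB8, a membrane-arm subunit often used as a marker of assembled complex I, had 8.87, 8.82 and 8.90 in MSC livers, against 8.85, 8.39 and 8.66 in control livers, a difference of 0.23. NDUFAB1, the mitochondrial acyl carrier protein that also serves in complex I, had 9.38, 9.19 and 9.24 in MSC livers, against 9.31, 8.84 and 9.07 in control livers, a difference of 0.20. In both genes control 1 overlapped the MSC livers.

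The remaining accessory subunits had differences between -0.08 and 0.17. NDUFB9 differed by 0.17, NDUFC1 by 0.09, NDUFB2 by 0.08 and NDUFA8 by 0.07. The control livers were widely spread in NDUFC1, which averaged 8.90 ± 0.08 in MSC livers and 8.80 ± 0.56 in control livers (SD, n = 3 each). NDUFA8 likewise averaged 8.41 ± 0.02 in MSC livers and 8.34 ± 0.48 in control livers (SD, n = 3 each), and was below the background level on controls 2 and 3. NDUFA6, NDUFA13 and NDUFS5 had lower means in MSC livers, by -0.08, -0.07 and -0.07, and the signals of NDUFA6 and NDUFS5 were below the background level. In all 13 subunits the SD was smaller in MSC livers than in control livers.

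Complex II, the succinate dehydrogenase that links the TCA cycle to the chain, was represented by its membrane anchor SDHD alone. The SDHD signals were 10.39, 10.07 and 10.14 in MSC livers, against 10.11, 9.95 and 10.02 in control livers, a difference of 0.18 (limma adjusted p = 0.793). MSC 1 was the highest, and MSC 2 lay below control 1. The cluster of SDHD is listed as prone to cross-hybridization. SDHA, SDHB, SDHC and CYC1 were not analysed here.

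Complex III, which moves electrons from ubiquinol to cytochrome c, was represented by a pair of small accessory subunits with differences of opposite sign. UQCRB, which supports the ubiquinol-binding part, had 10.87, 10.45 and 10.63 in MSC livers, against 10.88, 10.08 and 10.32 in control livers, a difference of 0.23. UQCR10 had 8.64, 8.76 and 8.25 in MSC livers, against 9.61, 8.33 and 8.27 in control livers, a difference of -0.18 (95% interval -0.99 to 0.62). The negative sign of UQCR10 rested on control 1, which stood far above the other 5 arrays, and without it the difference was 0.25. UQCR10 had the widest interval of all members and is also listed as prone to cross-hybridization.

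Complex IV, the cytochrome c oxidase, was represented by 8 nuclear-encoded genes, of which 5 had a higher mean in MSC livers, with a median difference of 0.08. COX5B, a regulatory subunit that binds zinc, had 8.26, 8.43 and 8.28 in MSC livers, against 8.32, 7.92 and 8.17 in control livers, a difference of 0.18. Its signals on controls 2 and 3 were below the background level. COX6A1, the form of subunit VIa found in liver and most other tissues, had 11.08, 11.09 and 10.89 in MSC livers, against 11.05, 10.66 and 10.84 in control livers, a difference of 0.17. In both genes control 2 was the lowest array and control 1 lay within the range of the MSC livers.

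COX7C differed by 0.14, COX6B, whose product faces cytochrome c in the intermembrane space, by 0.13, and COX7A2, the liver form of subunit VIIa, by 0.04. COX6C was the nuclear-encoded subunit above background with the most negative difference. Its signals were 10.12, 10.18 and 9.88 in MSC livers, against 10.35, 10.22 and 10.16 in control livers, a difference of -0.18 (limma adjusted p = 0.783). Only MSC 2 reached into the range of the control livers.

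NDUFA4L2, a relative of the complex IV subunit NDUFA4 that is known in human cells as a gene induced by hypoxia, had the most negative difference of all members. Its signals were 4.41, 4.004 and 4.56 in MSC livers, against 4.65, 4.72 and 4.41 in control livers, a difference of -0.27 (limma adjusted p = 0.773). COX8H, a form of subunit VIII known from heart and skeletal muscle, had 4.88, 5.22 and 5.17 in MSC livers, against 5.03, 5.46 and 5.03 in control livers. Both genes were far below the background level of 8.18 on every array, so these values say little about their RNA.

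COX1 and COX2, the catalytic subunits of complex IV that are encoded by mitochondrial DNA, were set apart from the nuclear-encoded subunits. COX1 had 13.88, 13.89 and 13.92 in MSC livers, against 13.93, 13.94 and 13.96 in control livers. COX2 had 13.35, 13.39 and 13.38 in MSC livers, against 13.44, 13.46 and 13.50 in control livers. For both genes every MSC liver lay below every control liver, an order found in 5.96% of all clusters, and no member had every MSC liver above every control liver, an order found in 5.64% of all clusters.

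The sizes of these differences were -0.05 for COX1 and -0.09 for COX2, with limma adjusted p-values of 0.925 and 0.852. The SD of COX2 was 0.023 in MSC livers and 0.029 in control livers, so its difference was larger than the spread between replicates although far from a log2 difference of 0.5. The signals stood near the upper end of the scale, whose highest value on any array was 14.24. After quantile normalization was repeated the difference of COX2 was -0.05 and COX1 had the same mean in both groups.

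ATP synthase was represented by 9 subunits, of which 8 had a higher mean in MSC livers, with a median difference of 0.15. Of the catalytic F1 part, ATP5B, the beta subunit that makes ATP, had 11.78, 11.67 and 11.74 in MSC livers, against 11.90, 11.27 and 11.49 in control livers, a difference of 0.17. ATP5A1, the alpha subunit, had 11.45, 11.32 and 11.32 in MSC livers, against 11.42, 11.08 and 11.24 in control livers, a difference of 0.12. Control 1 lay above every MSC liver for ATP5B and within their range for ATP5A1, control 2 was the lowest in both genes, and ATP5E, the epsilon subunit, differed by -0.01.

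All 6 genes of the membrane part and stalk had a higher mean in MSC livers. ATP5G1 and ATP5G3 encode the same c-ring protein, the rotor through which protons pass, with different import sequences. ATP5G1 had 10.35, 10.30 and 10.17 in MSC livers, against 10.22, 9.51 and 9.90 in control livers, and averaged 10.27 ± 0.09 in MSC livers and 9.88 ± 0.36 in control livers (SD, n = 3 each). The difference of 0.40 was the largest among the members (1.32-fold, 95% interval -0.03 to 0.83, limma adjusted p = 0.758), although control 1 lay above MSC 3.

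ATP5G3 had 10.33, 10.37 and 10.13 in MSC livers, against 10.55, 9.90 and 9.93 in control livers, a difference of 0.15. Control 1 was the highest of the 6 arrays in this gene. ATP5L, ATP5J2, ATP5I and ATP5H, which encode small subunits of the membrane part and the stalk, differed by 0.20, 0.16, 0.11 and 0.05. ATP5I was below the background level on every array.

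The 3 assembly factors were higher in the mean of the MSC livers. NDUFAF3, needed early in complex I assembly, had 8.63, 8.57 and 8.58 in MSC livers, against 8.72, 8.17 and 8.16 in control livers, a difference of 0.24. Its signals on controls 2 and 3 were just below the background level. COX17, the copper chaperone of complex IV, differed by 0.10, and COX10, an enzyme on the way to the heme A of complex IV, by 0.01. COX10 was below the background level on every array. Control 1 was the highest array in all 3 genes.

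**Figure D2:**
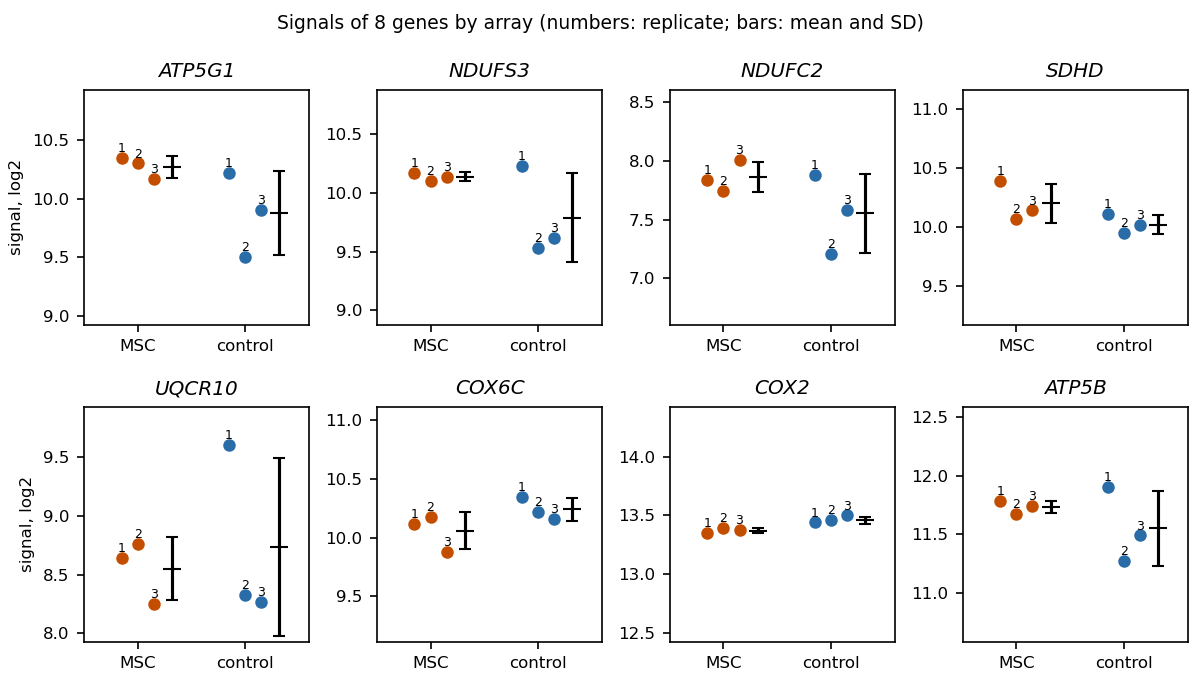
Log2 signals of 8 genes in MSC and control livers, with 1 numbered point per array, bars for the mean and SD of 3 arrays, and axes that all span 2 log2 units. Control 1 stands apart from controls 2 and 3 in NDUFS3 and UQCR10, the MSC livers lie close together in NDUFS3 and ATP5B, and the COX2 signals of the groups do not overlap but differ by only -0.09.

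The spread within the groups was unequal. The median SD of a member was 0.087 in MSC livers and 0.237 in control livers, as compared to 0.157 and 0.179 over all clusters. The SD was smaller in MSC livers for 33 of 38 members, which is 86.8%, against 57.2% of all clusters and 64.3% of the clusters above background. The equality of the variances was not tested.

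The control livers kept the same order in most members. Control 1 was the highest of the 6 arrays for 20 of 38 members, or 52.6%, against 20.2% of all clusters and 14.5% of the clusters above background. Control 2 was the lowest for 26 of 38 members, or 68.4%, against 21.1% of all clusters and 38.0% of the clusters above background. The mean log2 signal of the members was 9.41, 9.41 and 9.36 in MSC livers, against 9.57, 9.13 and 9.21 in control livers. The members of an array share its RNA, so these counts describe 3 control livers and not 38 independent observations.

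**Figure D3:**
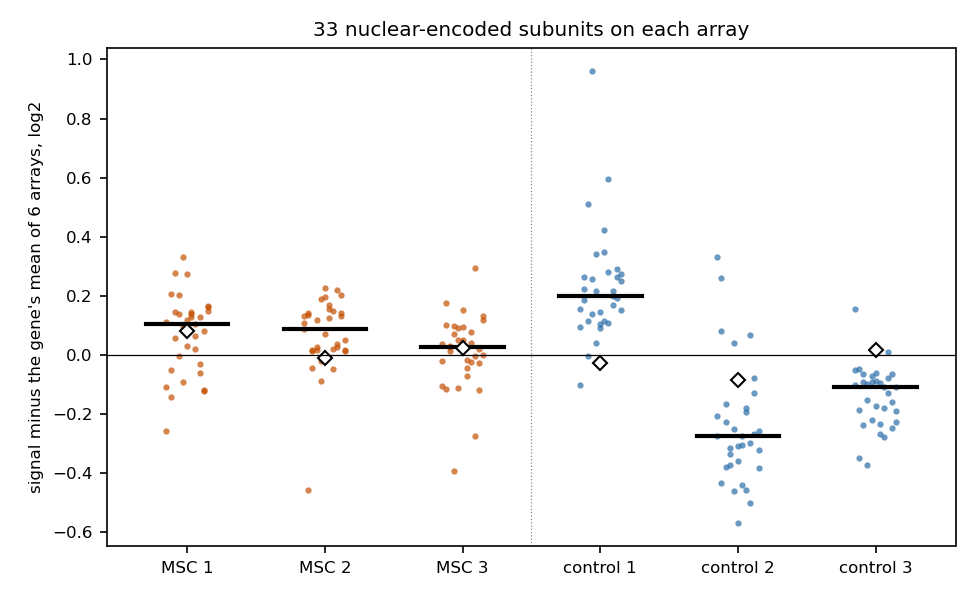
Signal of each of the 33 nuclear-encoded subunits on each array, as the log2 difference from that gene's mean over 6 arrays, with black bars for the median over the subunits and white diamonds for the median over all clusters above the background level. The median is between 0.03 and 0.11 on the 3 MSC arrays, highest on control 1 at 0.20 and lowest on control 2 at -0.27.

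Because of this order the comparison depended on single control livers. Without control 1 the median difference of the members was 0.25, and 2 of 38 passed the threshold, NDUFS3 with a difference of 0.56 (95% interval 0.28 to 0.85, limma adjusted p = 0.119) and ATP5G1 with 0.57 (0.20 to 0.94, limma adjusted p = 0.160). Of all clusters 3.95% passed in the same direction in that fit. Without control 2 the median difference was 0.03 and no member passed. Leaving out any MSC liver gave medians between 0.11 and 0.15, with no member past the threshold.

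Cell type markers differed between the same control livers. The 8 stellate cell and fibroblast markers averaged 9.28, 9.68 and 9.39 in MSC livers, against 9.27, 10.32 and 10.19 in control livers. The 5 endothelial markers averaged 8.66, 8.84 and 8.53 in MSC livers, against 8.34, 9.42 and 9.21 in control livers. Both lists were higher on controls 2 and 3 than on control 1 and the MSC livers, while the nuclear-encoded subunits had their lowest medians on controls 2 and 3 and their highest on control 1.

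All 8 stellate cell and fibroblast markers and all 5 endothelial markers had a lower mean in MSC livers. RGS5, a pericyte gene, fell by 0.67 and VWF, the von Willebrand factor of endothelial cells, by 0.71, and both passed the threshold. VWF was below the background level on every array, so its value says little about its RNA, and RGS5 was below it only on MSC 1 and MSC 2. Of the 3 bile duct markers, CFTR fell by 0.94 and EPCAM by 0.77, although EPCAM no longer passed without MSC 1, MSC 3, control 2 or control 3, with differences of -0.81, -0.54, -0.70 and -0.59. Both bile duct genes were below the background level on every MSC array and on control 1. The 4 hepatocyte markers averaged 12.68, 12.62 and 12.37 in MSC livers, against 12.62, 12.29 and 12.38 in control livers, and ALB was between 13.46 and 13.63 on every array, so the tissue carried the markers of liver. The 4 macrophage markers averaged 9.14, 9.06 and 9.10 in MSC livers, against 8.72, 9.06 and 9.11 in control livers. Among them CD14 differed by 0.48 (limma adjusted p = 0.736), short of the threshold, with every MSC liver above every control liver. MARCO differed by -0.28 with the opposite order, and was below the background level on every array. C1QA and C1QB differed by 0.21 and 0.15. Of the 2 erythroid markers, HBB, a globin of red blood cells, had 8.92, 9.31 and 7.75 in MSC livers, against 9.22, 10.68 and 9.22 in control livers, a difference of -1.05 (limma adjusted p = 0.760). HBB was highest on control 2, where the nuclear-encoded subunits were lowest, and SLC4A1 was below the background level on every array. The means of the 2 muscle markers, between 5.65 and 6.16, were below it on every array, as were those of the 5 T and NK cell markers. The part of the cell types and of blood in the values of the members was not tested.

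**Figure D4:**
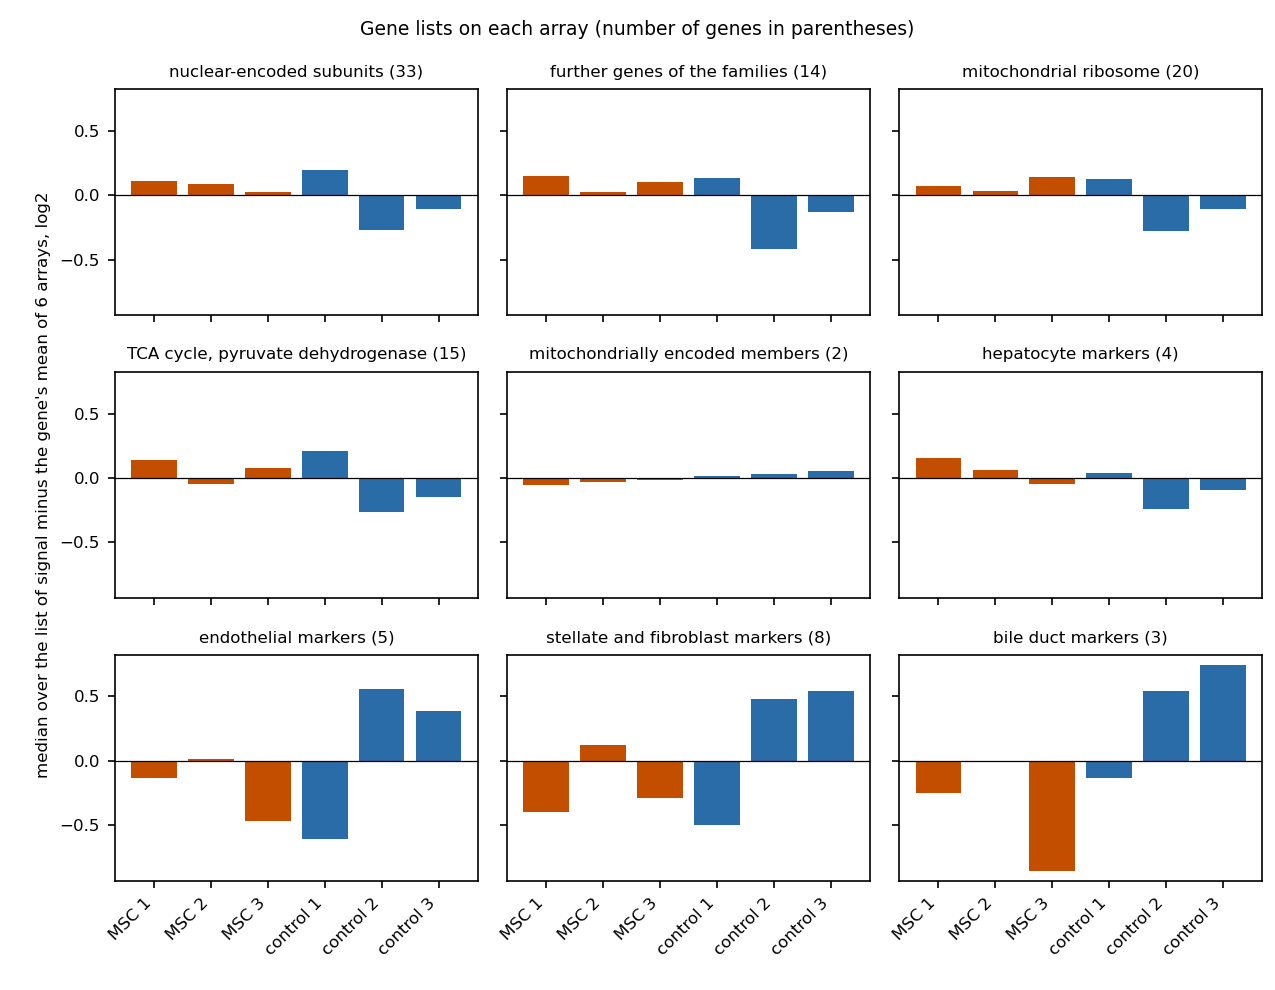
Median over each gene list of the signal minus the gene's mean over 6 arrays, on the log2 scale, for each MSC and control array. The nuclear-encoded subunits, the further genes of the families, the mitochondrial ribosome and the TCA cycle are lowest on control 2, where the stellate and endothelial markers are above 0, and the mitochondrially encoded members move by less than 0.06.

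A further 14 genes of the same families carried older names or bare gene numbers in the annotation and were found through current gene tables. All 14 had a higher mean in MSC livers, with a median difference of 0.26 and a range of 0.005 to 0.46, and none passed the threshold. NDUFB11, an accessory subunit of complex I encoded on the X chromosome, had 8.80, 8.95 and 8.72 in MSC livers, against 8.59, 8.22 and 8.51 in control livers, a difference of 0.38 (limma adjusted p = 0.736). NDUFA2 had 7.56, 7.65 and 7.41 in MSC livers, against 7.33, 7.05 and 7.29 in control livers, a difference of 0.32 (limma adjusted p = 0.752), and was below the background level of 8.18 on every array. These were the only 2 of the 14 genes with an unadjusted p under 0.05, which 6.55% of all clusters reached. In both and in NDUFS6 every MSC liver lay above every control liver, that is in 3 of the 14 genes and in 5.64% of all clusters.

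NDUFS6, which is needed for the last steps of complex I assembly, had 9.51, 9.49 and 9.46 in MSC livers, against 9.26, 9.17 and 9.30 in control livers, a difference of 0.24 (limma adjusted p = 0.757). NDUFB6 had the largest difference, with 9.99, 9.85 and 9.86 in MSC livers, against 9.93, 8.999 and 9.40 in control livers, a difference of 0.46 (limma adjusted p = 0.762). The complex I assembly factors NDUFAF6, NDUFAF4, NDUFAF1 and NDUFAF7 differed by 0.45, 0.41, 0.39 and 0.16. NDUFAF6 was below the background level on every array, and NDUFAF7 in the mean of either group. The core subunit NDUFV2 differed by 0.17, NDUFB3, NDUFB5, NDUFA5 and NDUFA12 by 0.27, 0.19, 0.12 and 0.08, and the stalk subunit ATP5O by 0.005. Control 2 was the lowest array in all 14 genes.

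Of these 14 genes, 3 passed the threshold without control 1, where NDUFB6, NDUFAF6 and NDUFAF4 differed by 0.70, 0.62 and 0.59, and 3 without MSC 2, where NDUFAF1, NDUFAF4 and NDUFAF6 differed by 0.53, 0.56 and 0.56. Of all clusters 3.95% were called higher without control 1 and 2.44% without MSC 2. Their median difference was 0.40 without control 1 and 0.16 without control 2. Taking members and further genes as a set of 52, the mean was higher in MSC livers for 42, with a median difference of 0.16.

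The other subunits encoded by mitochondrial DNA resembled COX1 and COX2. Of the 8 that carry their own symbols, 7 had a lower mean in MSC livers, with a median difference of -0.06, and none passed the threshold. ND3, a core subunit of complex I, had 13.23, 13.29 and 13.22 in MSC livers, against 13.35, 13.42 and 13.38 in control livers, a difference of -0.13. For ND3 every MSC liver lay below every control liver. ND5, ND4 and ATP8 also had this order, with differences of -0.10, -0.07 and -0.03. It held for 4 of the 8, against 5.96% of all clusters and 174 of the 5627 above background. The signals of these 4 genes, between 13.22 and 13.90, stood near the upper end of the scale, as those of COX1 and COX2 did. Of all 10 such genes, COX1 and COX2 included, 9 were lower in the mean of MSC livers, as compared to 7 after each array was centred on its median and also 7 after repeated quantile normalization, where the median differences were -0.03 and -0.04. ND6, the subunit encoded on the other strand, had 8.42, 8.69 and 8.13 in MSC livers, against 7.31, 7.99 and 9.17 in control livers.

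Several clusters of a gene did not always share a sign. The second cluster of ATP5B differed by -0.21 and that of COX7C by -0.48, against 0.17 and 0.14 for the clusters used above. Both second clusters were below the background level on every array, that of ATP5B between 7.48 and 8.12 and that of COX7C with 4.50, 4.92 and 4.02 in MSC livers and 5.28, 4.34 and 5.26 in control livers. NDUFA6 differed by 0.03 in its second cluster, against -0.08 in the cluster used, and both were below background. The second clusters of SDHD, ATP5J2 and COX10 differed by 0.23, 0.01 and 0.01, and both clusters of COX7A2 held identical values. For these genes the direction is therefore that of the brighter cluster.

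Among the assembly factors outside the naming rule, 5 of 6 had a higher mean in MSC livers, with a median difference of 0.17, and none passed the threshold. Without control 2, 3 of the 6 were higher, with a median difference of 0.04. TACO1, a translational activator of COX1, had 7.67, 7.65 and 7.68 in MSC livers, against 7.50, 7.22 and 7.39 in control livers, a difference of 0.30 (limma adjusted p = 0.739). Every MSC liver lay above every control liver for TACO1, an order found in 5.64% of all clusters. TACO1 was the only gene of the 6 with an unadjusted p under 0.05, which 6.55% of all clusters reached, and was below the background level on every array. FOXRED1, a complex I assembly factor, had 8.44, 8.33 and 8.72 in MSC livers, against 8.52, 7.63 and 7.71 in control livers, a difference of 0.54 (limma adjusted p = 0.757). Its cluster is listed as prone to cross-hybridization, and its signals on controls 2 and 3 were below the background level.

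Among 5 electron carriers and dehydrogenases that feed the chain, 4 had a higher mean in MSC livers and 1 fell. Without control 2, 3 of the 5 were higher, with a median difference of 0.01. CYCS, the cytochrome c that carries electrons between complexes III and IV, had 8.32, 7.33 and 7.74 in MSC livers, against 8.70, 8.30 and 8.34 in control livers. MSC 1 lay at the level of controls 2 and 3 and the other MSC livers below all control livers. CYCS fell by 0.65 (limma adjusted p = 0.737), and it no longer passed without MSC 2, MSC 3, control 1 or control 3, where it differed by -0.42, -0.62, -0.52 and -0.70. Its signals on MSC 2 and MSC 3 were below the background level. ETFA and ETFB, the electron transfer flavoprotein of fatty acid oxidation, differed by 0.19 and 0.16.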

How the data were processed

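Liver RNA was measured on the Porcine Gene 1.0 ST array from Affymetrix, with 1 array per sample. The deposited values are log2 signals that the authors made with RMA in Affymetrix Expression Console 1.4, which corrects background, quantile-normalizes and summarises probes. No source used here says whether RMA was run on these 6 arrays only. Of 27558 probe sets, the 25385 of category main (19124) or rescue (6261) were tested. Array medians were 6.51 to 6.59, and 5627 clusters (22.2%) averaged above 8.18, the 95th percentile of 23 antigenomic probe sets. Precision is limited by the number of arrays.

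MSC and control arrays were compared with limma 3.58.1 in R 4.3.3 (lmFit and eBayes with group only, 4 residual and 3.8 prior degrees of freedom) and Benjamini-Hochberg adjustment over all clusters. The fit was tested on simulated data. All members are counted and 1 of them is not reported here by name. The others are described, with array values for those of the smallest p, the extreme differences, the core subunits and the isoform pairs. COX1, the other mitochondrially encoded genes and some further genes were singled out after their values were seen. The members and lists were chosen with earlier results of these data known. A further 14 genes were matched by gene ID (13) or synonym (1) in current gene tables. Another 6 signal columns, whose names fit none of the samples, were left out, as were the deposited fold changes and p-values of the authors' own comparisons. No positions are printed, since the annotation names no build for them. P-values set the difference between the groups against the spread between these samples only. In limma that spread is moderated by the spread of all clusters.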

Additional observations from a re-analysis of the deposited data

How the results depend on the processing

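No member passed the threshold under any alternative but the omission of control 1. Members called higher ranged between 0 and 2 when 1 array was left out, and members with an unadjusted p under 0.05 between 0 and 14. The 14 arose without control 1, where 4044 of all 25385 clusters and 1368 of the 5627 above background also had such a p. The count of members with such a p was 4 with array weights, which gave control 1 the lowest weight of 0.447. It was 2 each by the methods' t-test and with the 14 further genes included. The members with a higher mean numbered 22 to 32 of 38 when 1 array was left out. Over all clusters, 314 were called higher and 378 lower, as compared to 739 and 826 with array weights, 13 and 19 by the methods' t-test with its 2-fold limit, 96 and 92 among clusters above background, 384 and 305 after median centring, and between 187 and 1003 higher and 258 and 1212 lower without 1 array. The sign of some small differences turned. It did so for ATP5B (-0.02) and COX7C (-0.17) with all clusters of a symbol averaged, for UQCR10 (0.0196) with array weights, for ATP5E (0.0237) after median centring, and for COX7A2 (-0.0079), COX10 (-0.0212), ATP5H (-0.0006) and ATP5O (-0.05) after repeated quantile normalization. Without 1 array the difference ranged between -0.19 and 0.0131 for NDUFA6, -0.10 and 0.34 for NDUFA8, -0.0218 and 0.21 for NDUFB2, -0.014 and 0.42 for NDUFB9, -0.11 and 0.41 for NDUFC1, -0.15 and 0.0634 for NDUFS5, -0.41 and 0.25 for UQCR10, -0.0702 and 0.18 for COX7A2, -0.16 and 0.0565 for COX8H, -0.0395 and 0.0725 for COX10, -0.0254 and 0.25 for COX17, -0.11 and 0.0423 for ATP5E, -0.0278 and 0.20 for ATP5H, -0.02 and 0.24 for ATP5I, -0.0185 and 0.43 for NDUFB5, -0.10 and 0.10 for ATP5O, and -0.0661 and 0.34 for NDUFA5. The cause was not tested. With the replicate block the median difference of the members was 0.12 and 0 were called, and the block changed no call of a member or further gene. Over all clusters the block gave 409 called higher and 425 lower. Samples of the same number deviated with correlations of -0.016, 0.252 and -0.0848, and samples of different numbers with values between -0.183 and 0.203. With only 3 samples per group, each centred on the group's mean, these values cannot decide whether samples of the same number were paired. Genes found through updated names, and the medians of the nuclear-encoded subunits under each refit, were added after seeing the data. With 3 arrays per group the median interval of a member reached 0.355 to either side.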

Other observations

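The mitochondrial ribosome translates the subunits encoded by mitochondrial DNA. Of 20 of its genes, 19 had a higher mean in MSC livers, with a median difference of 0.17, and 1, MRPL49, passed the threshold. Of all clusters, 46.7% had a higher mean and 2.73% passed the threshold, and of those above background 64.6% had a higher mean. Without control 2, 14 of the 20 were higher, with a median difference of 0.07. MRPL49 had 9.48, 9.48 and 9.37 in MSC livers, against 9.11, 8.77 and 8.37 in control livers, and rose by 0.69 (limma adjusted p = 0.736). It also passed when any 1 of the 6 arrays was left out, with differences between 0.51 and 0.87. MRPS18B and MRPS28 differed by 0.48 and 0.42 with overlapping groups. The cluster of MRPS18B is listed as prone to cross-hybridization, and MRPS28 was below the background level on every array.

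Of 15 genes of the TCA cycle and pyruvate dehydrogenase, 13 had a higher mean in MSC livers, with a median difference of 0.15, and none passed the threshold. A higher mean was found in 46.7% of all clusters and 64.6% of those above background. Without control 2, 8 of the 15 were higher, with a median difference of 0.02. IDH2, the mitochondrial isocitrate dehydrogenase that makes NADPH, had 10.57, 10.42 and 10.78 in MSC livers, against 10.40, 10.17 and 10.28 in control livers, a difference of 0.31 (limma adjusted p = 0.757). The cluster of IDH2 is listed as prone to cross-hybridization. PDK4, a kinase that switches off pyruvate dehydrogenase in fasting, had 8.34, 8.40 and 7.63 in MSC livers, against 10.90, 9.17 and 7.57 in control livers, so that the control livers alone spanned more than the difference of -1.09. Of 8 regulators of mitochondrial biogenesis, 6 had a higher mean in MSC livers and none passed, but only 2 of the 8 averaged above the background level. TFAM, the packaging factor of mitochondrial DNA, was above it and differed by 0.21. SIRT3, the mitochondrial deacetylase, differed by 0.33 and was below it on every array.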
